A study of Homo sapiens with 18 samples.

Results

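This comparison sets 16D prostate cancer cells that had spent 24 h in 10 µM enzalutamide, the shortest exposure of the series, against 16D cells in the solvent DMSO. It rests on 6 of the 18 RNA libraries, 3 per group, chosen by their labels alone, and it covers the 16169 genes that had at least 1 TPM in at least 3 of the 18 libraries. TPM is a gene's abundance corrected for transcript length and scaled so that every library has the same sum. 16D is an established human castration-resistant prostate cancer line, labelled wild type. Both groups grew in RPMI with 10% serum and antibiotics. The other 4 groups, again of 3 libraries, had been in the drug for 48 h, 96 h, 144 h or over 2 months. No time is stated for the only DMSO group, so drug and time in culture cannot be told apart.

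Androgens drive a transcriptional program in luminal prostate cells that works together with factors such as FOXA1 and HOXB13. It keeps up the genes of secretion, of sugar nucleotide and lipid synthesis and of ion and amino acid transport. Enzalutamide is an antiandrogen used against prostate cancer, and cells given antiandrogens are known to lose transcripts of androgen-induced genes and to gain those of androgen-repressed ones.

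Throughout, TPM are given per library or as the mean ± SD of 3 libraries. Signed values without a unit are the log2 change, 24 h minus DMSO, ± standard error. They are differences of log2(TPM + 1), a scale that understates the change of low genes. A gene is called when its p from limma's moderated test, adjusted by Benjamini and Hochberg over all 16169 genes, is under 0.05. Whether the 3 replicates were grown separately is not stated, so p-values measure only the spread between these libraries. Read depth cannot be recovered from TPM, so counting error is not given for any value. Because the values come from whole cultures, fewer cells that express a gene and less RNA per cell cannot be told apart.

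Across genes, Pearson's r between libraries of the same group was 0.983 to 0.99. Mitochondrially encoded transcripts took 17.7% to 20.6% of TPM in the DMSO libraries and 18.3% to 20.3% at 24 h. The markers fitted the label: in DMSO, the luminal keratin gene KRT8 stood at 145, 139 and 144 TPM and the epithelial adhesion gene EPCAM at 178, 169 and 176 TPM. None of 12 leukocyte markers exceeded 0.83 TPM in any of the 6 libraries. Of 10 fibroblast markers 2 were high enough to test, with no call, and of 8 endothelial markers also 2, of which VWF was called lower, from 2.46 TPM on average in DMSO to 0.967 TPM after 24 h. The summed level of the endothelial list was 3.25 to 3.65 TPM in DMSO and 1.36 to 2.41 TPM at 24 h with 1 marker at 0 in all 6 libraries, and that of the fibroblast list 17.74 to 20.2 TPM and 19.81 to 27.39 TPM with 4 at 0. Their part in the results was not tested.

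After 24 h of enzalutamide, 1321 genes were called, 8.17% of those tested, with 742 higher (4.59%) and 579 lower (3.58%). In the fit as reported, the decreases were fewer and larger. Among the genes called lower, 108 (0.668% of all tested) fell by at least 1 on the log2 scale and 18 by at least 2. Of the genes called higher, 47 (0.291%) rose by at least 1 and none by 2, and their median change was 0.478 against 0.541 in size for the lower ones. The median change of all genes tested was 0.0168. In share of all TPM, the genes called higher went from 2.88 ± 0.0270% to 3.77 ± 0.0254% and those called lower from 4.10 ± 0.107% to 2.79 ± 0.0465%. These genes were chosen by their call in the same libraries. The direction of both sums was therefore set in advance, and only their size is informative. The split by direction depended on the processing: higher genes were 56.2% of the calls as reported and 44.3% of 2026 calls with median-of-ratios scaling. Lower genes also outnumbered higher ones without a filter (619 against 595) and in a fit of both groups alone (497 against 492). The same held without DMSO replicate 3 (492 against 477), while higher genes were the larger part in the other alternatives. Leaving out DMSO replicate 1 left 869 calls. The libraries of both groups did not overlap in 27.3% of all genes tested, in 737 of the 742 genes called higher and in all 579 called lower, so the lack of overlap given for called genes below adds nothing to their call.

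**Figure D1:**
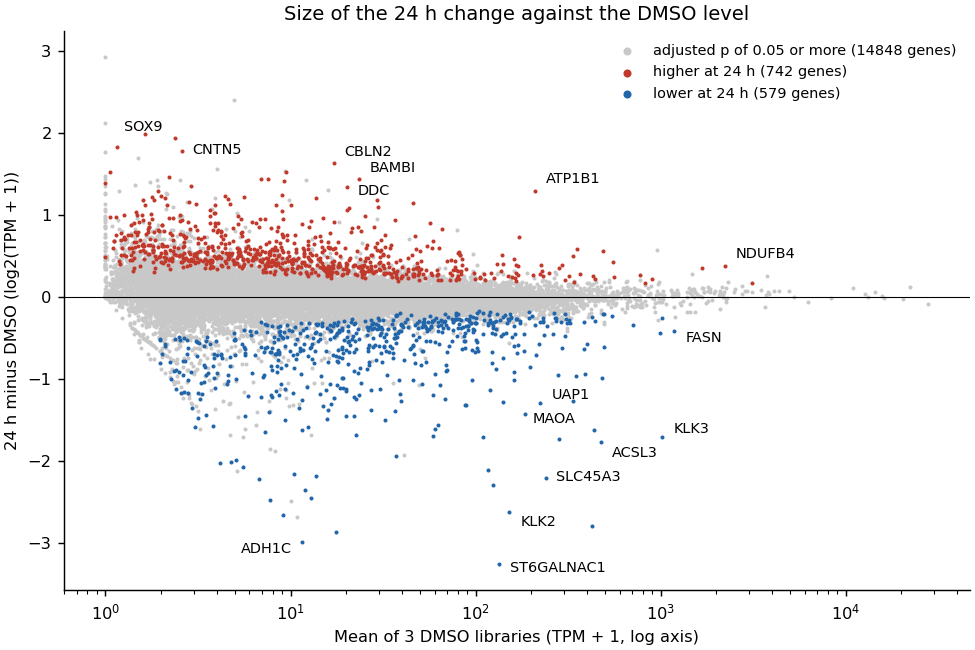
Each point is 1 of 16169 genes, placed by its mean TPM + 1 in DMSO (log axis) and by its change at 24 h on the log2(TPM + 1) scale. Genes called higher (red) reach 1.98, while genes called lower (blue) reach -3.26 in ST6GALNAC1 and include abundant genes such as KLK3, ACSL3 and MAOA.

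The best-known androgen-induced genes of the prostate encode proteases and other secreted proteins, and most of them were lower after 24 h. Of 12 such genes tested, 8 fell and 1 rose (median -0.78). KLK3 (ENSG00000142515, chromosome 19, 50854915 to 50860764, coordinates here and below on GRCh38) is the gene of prostate-specific antigen, and its promoter is a reference case of androgen control. The stretch before its start is shown because it holds a match to an androgen response element. The capitals mark a match, with 2 mismatches, to this element, AGAACA and TGTTCT with 3 bases of any kind between them, beginning 170 bases before the start. It was searched on both strands, in RefSeq sequence of build GRCh38.p14.
KLK3 promoter, chr19:50854665-50854914, plus strand: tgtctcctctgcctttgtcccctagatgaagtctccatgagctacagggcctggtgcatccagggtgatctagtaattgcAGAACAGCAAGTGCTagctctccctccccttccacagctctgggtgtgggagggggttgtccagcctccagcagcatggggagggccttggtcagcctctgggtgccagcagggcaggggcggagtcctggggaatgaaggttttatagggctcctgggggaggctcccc
KLK3 stood at 1038, 1037 and 989 TPM in DMSO and 311, 308 and 321 TPM at 24 h. No 24 h library reached the lowest DMSO library, and the change was -1.70 ± 0.06 (adjusted p = 1.71e-11). KLK2 and KLK4, neighbouring kallikrein protease genes, fell by different amounts, KLK2 with 158, 149 and 147 TPM in DMSO and 23.3, 23.02 and 25 TPM at 24 h, and KLK4 with 285, 268 and 285 TPM in DMSO and 137, 153 and 141 TPM at 24 h. On the log2 scale the change was -2.62 ± 0.09 for KLK2 and -0.96 ± 0.05 for KLK4 (ENSG00000167749, chromosome 19, 50906352 to 50910738). Reads of KLK2 and KLK3 are hard to separate because the genes resemble each other. KLK15, another gene of the cluster, fell from 4.61 ± 0.0265 to 2.7 ± 0.513 TPM, a call lost without 5 of the 6 libraries when each was left out in turn.

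AZGP1, a secreted zinc-binding glycoprotein gene, stood at 58.2, 60.97 and 58.2 TPM in DMSO and 30.2, 31.9 and 29.2 TPM at 24 h, with a change of -0.93 ± 0.08 (adjusted p = 8.89e-07). SPDEF encodes an ETS factor of secretory epithelium (ENSG00000124664, chromosome 6, 34537802 to 34556333). It was measured at 160.4, 162 and 159.9 TPM in DMSO and 80.5, 78.8 and 79.7 TPM at 24 h, and the libraries of each group lay within a few TPM of each other while the groups were far apart (-1.01 ± 0.08, adjusted p = 5.31e-07). ACPP, the prostatic acid phosphatase gene, was the 1 secreted gene that rose. Its libraries held 7.97, 9.45 and 6.59 TPM in DMSO and 21.9, 17.8 and 20.9 TPM at 24 h, a change of 1.24 ± 0.12 (adjusted p = 4.61e-06). MSMB and TFF3, genes of 2 small secreted proteins, did not pass the test (-0.61 and 0.20).

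Transporters and channels followed the same direction, with 9 of 15 lower and 1 higher (median -0.39). SLC45A3, a sugar transporter gene often fused to ETS genes in prostate cancer (ENSG00000158715, chromosome 1, 205657851 to 205680459), had 239, 239 and 237 TPM in DMSO and 51.1, 50.3 and 51.5 TPM at 24 h, and its change was -2.20 ± 0.07 (adjusted p = 1.54e-11). KCNN2 encodes a calcium-activated potassium channel, and its DMSO libraries at 35.6, 35.3 and 35.5 TPM stood clear of its 24 h libraries at 12.6, 12.6 and 13.6 TPM. ABCC4, an efflux pump gene, went from 38.2 ± 5.06 to 16.2 ± 1.26 TPM (-1.18), and SLC43A1, a transporter gene for branched amino acids, from 181 ± 5.82 to 114 ± 2.19 TPM (-0.66). STEAP1 and STEAP2, genes of androgen-related surface proteins, did not pass the test, at -0.22 ± 0.08 and -0.08 ± 0.10. SLC30A4, a zinc exporter gene, was the member called higher, from 49.7 ± 2.68 to 67.7 ± 6.86 TPM; that call was lost without 24 h replicate 1.

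Sugar nucleotides and glycan chains had 5 of 18 genes lower and none higher (median -0.24). UAP1 makes the nucleotide sugar UDP-N-acetylglucosamine (ENSG00000117143, chromosome 1, 162561506 to 162599842), and its values were 217, 238 and 214 TPM in DMSO and 95.8, 89.6 and 87.2 TPM at 24 h (-1.29 ± 0.08, adjusted p = 1.56e-08). NANS, which makes sialic acid, fell less, from 155 ± 1.25 to 129.7 ± 3.13 TPM (-0.26). ST6GALNAC1, a sialyltransferase of mucin-type glycans, had the largest decrease of all called genes, at 122, 158 and 117 TPM in DMSO and 15.2, 13.8 and 9.93 TPM at 24 h. Median-of-ratios scaling gave 9 genes called lower, and the data without DMSO replicate 2 gave 3.

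Intracellular androgen-induced genes, of signalling, transcription and trafficking, had 22 of 32 lower and 2 higher (median -0.66). C1orf116, also called SARG, an androgen-regulated gene (ENSG00000182795, chromosome 1, 207018521 to 207032756), had 122, 133 and 115 TPM in DMSO and 25.3, 23.4 and 24.6 TPM at 24 h. PMEPA1 encodes a membrane protein that dampens TGF-beta signalling, and its libraries held 109, 124 and 113 TPM in DMSO and 28.2, 25.6 and 24.1 TPM at 24 h, without overlap. TMPRSS2, the serine protease gene whose promoter drives ETS fusions, had 104, 123 and 98.98 TPM in DMSO and 33.8, 30.8 and 33.1 TPM at 24 h, and FKBP5, a steroid receptor cochaperone gene, 85.7, 95.9 and 79.5 TPM in DMSO and 34.6, 32.8 and 35.01 TPM at 24 h. Neither gene had a 24 h library near its DMSO range. ZBTB16, a zinc finger repressor gene, went from 21.6 ± 0.792 to 6.04 ± 0.641 TPM (-1.69), and MAF, a bZIP factor gene, from 10.5 ± 1.79 to 2.76 ± 0.602 TPM (-1.62). RHOU, a small GTPase gene, was at 30.4, 34.5 and 29.4 TPM in DMSO and 11.7, 9.09 and 10.7 TPM at 24 h, again with both groups apart. SNAI2, known as a driver of epithelial-mesenchymal transition, was low in DMSO and lower at 24 h, with 4.36, 4.55 and 4.75 TPM in DMSO and 0.4, 0.19 and 0.39 TPM at 24 h (-2.07 ± 0.11, adjusted p = 4.59e-09). INPP4B, a phosphatase gene that opposes PI3K signalling, stood at 10.1, 10.8 and 9.52 TPM in DMSO and 4.01, 2.3 and 4.08 TPM at 24 h, all 24 h libraries being lower. CAMKK2, the kinase gene upstream of AMPK, fell from 33.5 ± 4.15 to 21.8 ± 0.569 TPM (-0.59), and NEDD4L, a ubiquitin ligase gene, did not pass the test (-0.12). The 2 calls of higher genes, PIK3R3 and TSC22D3, were both lost without DMSO replicate 1 or DMSO replicate 3, or without 24 h replicate 1.

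**Figure D2:**
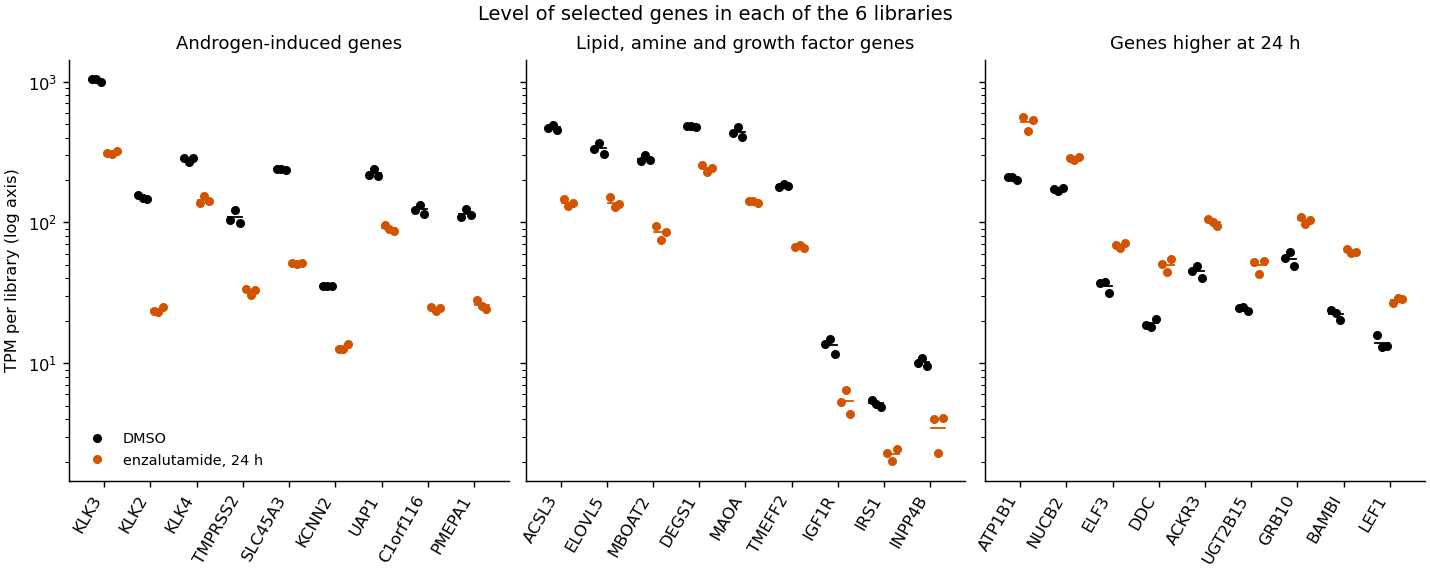
Dots are the TPM of 27 genes in each of the 3 DMSO libraries (black) and the 3 enzalutamide 24 h libraries (orange), on a log axis, and short lines are group means. In each gene shown the libraries of both groups are apart, for example 201 to 211 TPM in DMSO and 445 to 562 TPM at 24 h for ATP1B1.

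Genes that androgen is known to repress had 7 of 17 higher and 2 lower (median 0.31). DDC, the enzyme gene that makes dopamine and serotonin from their precursors (ENSG00000132437, chromosome 7, 50458436 to 50565457), stood at 18.8, 18.1 and 20.7 TPM in DMSO and 50.8, 44.3 and 55.1 TPM at 24 h (1.33 ± 0.10, adjusted p = 1.83e-07). ACKR3 encodes an atypical receptor that scavenges the chemokine CXCL12, and its values were 45.3, 49.2 and 40.1 TPM in DMSO and 106, 99.98 and 94.4 TPM at 24 h, every 24 h library being above every DMSO library. OPRK1, the kappa opioid receptor gene, rose from below 1 TPM, with 0.95, 0.88 and 0.93 TPM in DMSO and 4.09, 3.73 and 3.32 TPM at 24 h. UGT2B15, which inactivates androgens by glucuronidation, had 24.6, 24.9 and 23.7 TPM in DMSO and 52.3, 43.2 and 53.2 TPM at 24 h (0.99), while its paralog UGT2B28 fell, with 17.6, 19.1 and 15.8 TPM in DMSO and 8.12, 6.26 and 8.54 TPM at 24 h (-1.10), and UGT2B17 did not pass the test (0.02 ± 0.08). These paralogs are similar, so reads may have been divided between them unevenly. GRIN3A, a glutamate receptor subunit gene, and HES6, a bHLH factor gene, were the members called lower (-0.90 and -0.63).

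Of 20 genes of pioneer factors, coregulators and others of androgen-driven transcription, 4 were higher and 1 was lower (median -0.02). FOXA1, a pioneer factor gene, did not pass the test at 242, 289.8 and 257 TPM in DMSO and 357, 291 and 282 TPM at 24 h (0.23 ± 0.15, adjusted p = 0.417), and the groups overlapped. HOXB13 rose from 168 ± 6.298 to 218 ± 4.83 TPM (0.38). GATA2, another partner factor, held 154, 169 and 157 TPM in DMSO and 236, 219.9 and 206 TPM at 24 h (0.46 ± 0.08, adjusted p = 0.000921). TLE3, a Groucho-type corepressor gene, rose most of the 20, with 66.5, 72.1 and 55.3 TPM in DMSO and 116.2, 126 and 103 TPM at 24 h (0.83 ± 0.13, adjusted p = 0.000629). NCOA3 also rose and NCOR1 fell, but both calls were lost without single libraries.

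ETS factors, several of which are known from prostate epithelium, moved in opposite directions, with 3 of 14 lower and 1 higher. SPDEF, given above, fell with ELK4 (26.5, 27.2 and 22.7 TPM in DMSO and 14.99, 12.1 and 14.8 TPM at 24 h) and EHF, an epithelial factor, from 210.5 ± 34.5 to 127 ± 0.329 TPM (-0.71). ELF3, an epithelial ETS factor gene (ENSG00000163435, chromosome 1, 202007945 to 202017188), had 36.9, 37.9 and 31.6 TPM in DMSO and 68.98, 65.5 and 71.9 TPM at 24 h, a change of 0.94 ± 0.08 (adjusted p = 4.96e-07). ETS1, ETS2, ETV4 and ETV5 did not pass the test (-0.17, -0.08, 0.21 and -0.03).

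Of 21 genes of fatty acid synthesis 6 fell and 1 rose (median -0.11). ACSL3 couples long fatty acids to coenzyme A at lipid droplets (ENSG00000123983, chromosome 2, 222860934 to 222944639), and it stood at 466, 495 and 456 TPM in DMSO and 146, 129.8 and 138 TPM at 24 h. Its change was -1.77 ± 0.06 (adjusted p = 1.71e-11). The elongase genes ELOVL2 (-1.94), ELOVL7 (-1.61) and ELOVL5 (-1.27) fell as well. ELOVL5 was the most abundant of the 3, with 329, 366 and 308 TPM in DMSO and 151, 129 and 134 TPM at 24 h. ELOVL1, ELOVL4 and ELOVL6 did not pass the test (-0.16, 0.01 and 0.16), and neither did the desaturase gene SCD (0.03). FASN, the fatty acid synthase gene, fell by less, with 1182, 1182 and 1195 TPM in DMSO and 912, 881 and 882 TPM at 24 h, a change of -0.41 ± 0.07 (adjusted p = 0.00173). ACACA, the acetyl-CoA carboxylase gene that precedes it in the pathway, was also called lower, a call lost without DMSO replicate 1 or DMSO replicate 2. ACSL1, another acyl-CoA synthetase gene, was the member called higher (0.41), and that call was lost without single libraries.

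Among the 15 genes with the largest losses in TPM were 4 with roles in lipid or pyruvate handling, grouped here after their values were seen. MBOAT2, which attaches acyl chains to lysophospholipids, stood at 272, 299 and 276 TPM in DMSO and 94.2, 75.3 and 85.03 TPM at 24 h. DEGS1, the desaturase of ceramide synthesis (ENSG00000143753, chromosome 1, 224175756 to 224193441), had 479.8, 484 and 479 TPM in DMSO and 256, 229 and 243 TPM at 24 h (-0.99 ± 0.06, adjusted p = 3.51e-08). DBI, a carrier of acyl-CoA, had 989.7, 1011 and 959.6 TPM in DMSO and 739, 722 and 719.8 TPM at 24 h, and MPC2, a subunit of the mitochondrial pyruvate carrier, 488, 530.1 and 462 TPM in DMSO and 331, 320.3 and 316 TPM at 24 h. For each of these 4 genes, all 24 h libraries were below all DMSO libraries. In cholesterol synthesis 6 of 25 genes were lower and 1 higher (median -0.21), or 11 lower with median-of-ratios scaling. TM7SF2, a sterol reductase gene, rose from 164 ± 4.75 to 216 ± 5.66 TPM (0.39). SREBF2, the gene of a factor that drives sterol synthesis, did not pass the test (-0.07).

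On the breakdown side 3 of 21 genes were higher and 3 lower. CRAT, the mitochondrial carnitine acetyltransferase gene, rose from 13.7 ± 1.31 to 20.5 ± 1.77 TPM, while CROT, its peroxisomal counterpart for medium chains, fell from 14.99 ± 1.15 to 8.26 ± 1.44 TPM. AMACR, a racemase of branched fatty acids used as a prostate cancer marker, rose from 24.9 ± 0.936 to 32.2 ± 0.854 TPM (0.36).

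Amine metabolism showed opposite changes in 2 enzymes. MAOA, which breaks down serotonin and noradrenaline (ENSG00000189221, chromosome X, 43654907 to 43746824), stood at 433, 474 and 405 TPM in DMSO and 143, 142 and 137 TPM at 24 h (-1.63 ± 0.10, adjusted p = 2.15e-08). DDC, which makes such amines, rose as given above. In TPM, the mean losses of MAOA and FASN were about equal, differing by less than the MAOA libraries in DMSO did among themselves (405 to 474 TPM). SAT1, which acetylates polyamines for export, fell from 85.6 ± 5.19 to 58.5 ± 0.634 TPM (-0.54), and ARG2, the mitochondrial arginase gene, rose from 140.1 ± 4.91 to 185 ± 1.52 TPM (0.40).

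Among genes that gained many TPM was ATP1B1, the beta subunit of the sodium-potassium pump (ENSG00000143153, chromosome 1, 169105697 to 169132722). Its libraries held 211, 211 and 201 TPM in DMSO and 562, 445 and 536 TPM at 24 h, a change of 1.30 ± 0.10 (adjusted p = 2.54e-07). Every 24 h library was above every DMSO library. NUCB2, which encodes the precursor of nesfatin-1, had 172, 166 and 176 TPM in DMSO and 287, 277 and 289 TPM at 24 h (0.73). SELENBP1, a selenium-binding oxidase gene, went from 353 ± 9.35 to 531 ± 9.86 TPM, and MME, the membrane peptidase neprilysin, from 334 ± 23.02 to 472 ± 20.4 TPM. NDUFB4, a subunit of respiratory complex I, was among the most abundant genes called higher, with 2222, 2140.2 and 2282 TPM in DMSO and 2752, 3045 and 2860.1 TPM at 24 h (0.38).

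Several of the largest falls in log2 terms came from genes of modest level. ADH1C, an alcohol dehydrogenase gene, had 10.7, 10.5 and 10.6 TPM in DMSO and 0.39, 0.54 and 0.47 TPM at 24 h. TRPM8, the androgen-responsive cold-sensing calcium channel gene (ENSG00000144481, chromosome 2, 233917398 to 234019522), had 14.5, 21.2 and 13.99 TPM in DMSO and 1.72, 1.65 and 0.84 TPM at 24 h, and F5, coagulation factor V, 10.5, 9.56 and 8.18 TPM in DMSO and 1.09, 1.43 and 1.51 TPM at 24 h. In all 3 the 24 h libraries were at or below 1.72 TPM, far under the DMSO libraries. NNMT, which methylates nicotinamide, went from 11.9 ± 1.86 to 1.37 ± 0.444 TPM (-2.45). IQGAP2, a scaffold protein gene of the cytoskeleton, was more abundant and fell from 57.5 ± 3.45 to 17.1 ± 1.29 TPM (-1.69), and CADM2, an adhesion molecule gene, from 6.32 ± 0.373 to 1.34 ± 0.2203 TPM. RASSF3, a Ras-association domain protein gene, was among the larger losses in TPM, with 384, 417 and 359 TPM in DMSO and 215, 179 and 211 TPM at 24 h (-0.94).

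Several of the largest gains were also at modest levels. GASK1B, a Golgi-associated kinase-like protein gene, had 6.47, 7.88 and 5.26 TPM in DMSO and 19.9, 18.3 and 19.3 TPM at 24 h. HOXC9, a homeobox gene of posterior body identity, had 2.97, 3.05 and 4.21 TPM in DMSO and 7.31, 10.9 and 9.82 TPM at 24 h (1.23 ± 0.14, adjusted p = 2.56e-05), and COLEC12, a scavenger receptor gene, 3.35, 3.9 and 3.89 TPM in DMSO and 9.56, 9.45 and 8.94 TPM at 24 h. FGF13, an intracellular FGF relative that regulates sodium channels, rose from 3.58 ± 0.127 to 9.503 ± 0.296 TPM (1.20), and RASL11A, a Ras-like GTPase gene, from 4.58 ± 0.212 to 12 ± 1.003 TPM. NIPSNAP3A, a mitochondrial protein gene, had 29.5, 29.8 and 27.2 TPM in DMSO and 69.3, 56.3 and 64 TPM at 24 h, and DRAIC, a long non-coding RNA known as androgen-repressed in prostate cancer, 19.9, 19.6 and 19.4 TPM in DMSO and 41.9, 43.7 and 42.3 TPM at 24 h. These genes were picked among those without overlap between the groups. PRAC1, a prostate- and colon-restricted gene next to HOXB13, also rose, from 291 ± 13.2 to 382 ± 10.2 TPM (0.39).

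The insulin-like growth factor axis was lower at a receptor and its adaptor and higher at an inhibitory adaptor and a binding protein. Of 31 growth factor genes 4 fell and 6 rose (median -0.02). IGF1R, the IGF-1 receptor gene (ENSG00000140443, chromosome 15, 98648539 to 98964530), stood at 13.7, 14.9 and 11.5 TPM in DMSO and 5.27, 6.47 and 4.34 TPM at 24 h (-1.18 ± 0.13, adjusted p = 1.49e-05). IRS1, its main adaptor, had 5.5, 5.15 and 4.89 TPM in DMSO and 2.29, 2.01 and 2.46 TPM at 24 h (-0.93). GRB10, an adaptor that inhibits this receptor, rose with 55.5, 61.4 and 49.1 TPM in DMSO and 109.7, 97.2 and 105 TPM at 24 h (0.90 ± 0.08, adjusted p = 1.58e-06), and IGFBP3, a binding protein gene, with 12.6, 15.1 and 12.6 TPM in DMSO and 23.1, 23.3 and 23.1 TPM at 24 h (0.75). INSR, the insulin receptor gene, and IGFBP2 did not pass the test (-0.02 and 0.04). The MAP kinase phosphatase genes DUSP4 and DUSP6 moved apart: DUSP4 fell from 30.2 ± 4.002 to 16.9 ± 0.482 TPM and DUSP6 rose from 0.697 ± 0.315 to 1.903 ± 0.313 TPM. EGFR fell (-0.34), a call lost without single libraries, and ERBB2 rose from 19.2 ± 0.317 to 23.9 ± 0.897 TPM.

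The integrated stress response works through the transcription factor ATF4. Of 32 genes, ATF4 and its targets, 10 were higher and none lower (median 0.19). Leaving out single libraries gave 7 or 8. DDIT3, which encodes the factor CHOP (ENSG00000175197, chromosome 12, 57516588 to 57521737), stood at 20.2, 20.2 and 20.02 TPM in DMSO and 35.9, 34.1 and 36.5 TPM at 24 h (0.79 ± 0.07, adjusted p = 1.07e-06). CHAC1 degrades glutathione and is a classical ATF4 target (ENSG00000128965, chromosome 15, 40952962 to 40956519). Its promoter is shown because it holds a match to the composite element of C/EBP and ATF factors, TGATGCAA, on the minus strand. The capitals mark this match, 209 bases before the start, again from RefSeq and GRCh38.p14. This RefSeq start lies inside the GENCODE span of the gene.
CHAC1 promoter, chr15:40953221-40953470, plus strand: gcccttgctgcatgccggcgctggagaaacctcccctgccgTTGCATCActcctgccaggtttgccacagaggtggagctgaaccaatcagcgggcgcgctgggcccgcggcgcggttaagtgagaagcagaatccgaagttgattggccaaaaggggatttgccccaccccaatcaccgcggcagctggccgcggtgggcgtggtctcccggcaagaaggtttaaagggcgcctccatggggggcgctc
CHAC1 had 28.9, 26.8 and 29.6 TPM in DMSO and 41.01, 41.2 and 46.3 TPM at 24 h, a change of 0.57 ± 0.08 (adjusted p = 9.03e-05). SLC7A5, the large amino acid transporter gene, had 6.29, 6.77 and 6.78 TPM in DMSO and 11.3, 10.9 and 11.1 TPM at 24 h, and DDIT4, an inhibitor of mTORC1, 141, 140.0 and 133 TPM in DMSO and 199, 195 and 199 TPM at 24 h. NUPR1, a stress factor gene, was far more abundant, with 563, 518 and 579.6 TPM in DMSO and 724, 769.7 and 745 TPM at 24 h. ATF4 itself went from 364 ± 9.14 to 443 ± 16.7 TPM (0.28), and the amino acid enzyme genes ASNS and PCK2 rose by 0.25 and 0.21, the call of PCK2 being lost without 5 of the 6 libraries. PHGDH and SLC3A2 were the other 2 called members, and their calls were likewise lost without single libraries. Other known targets did not pass the test, among them TRIB3 at 0.03 ± 0.07, ATF3 at -0.08 ± 0.11 and PSAT1 at 0.16 ± 0.10. The cytosolic tRNA synthetase genes, another ATF4-driven set, had 0 of 20 called by limma as reported, with 2 at an unadjusted p under 0.05. Under other scalings up to 3 were called lower or 2 higher.

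The unfolded protein response serves the endoplasmic reticulum and shares DDIT3 with the stress response. Its list of 26 genes leaves out DDIT3 and ATF4, both called higher above. Of the 26, 7 were lower and none higher (median -0.19), a count that depends on this choice of members. CREB3L4, an androgen-induced membrane-bound factor gene of that response (ENSG00000143578, chromosome 1, 153967534 to 153974363), stood at 227, 219 and 210.5 TPM in DMSO and 153, 139.7 and 148 TPM at 24 h (-0.57 ± 0.05, adjusted p = 2.33e-06). MANF, a secreted protein of the endoplasmic reticulum, had 679, 724 and 706 TPM in DMSO and 559, 576 and 533 TPM at 24 h (-0.34). The chaperone gene HSPA5 and the factor gene XBP1 did not pass the test (-0.17 and 0.16). With median-of-ratios scaling 11 genes were called lower; leaving out DMSO replicate 2 or DMSO replicate 3 left 4.

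Metallothioneins, small proteins that bind zinc, rose in part. MT2A stood at 492, 462 and 509.6 TPM in DMSO and 696, 765 and 705 TPM at 24 h (ENSG00000125148, chromosome 16, 56608199 to 56609497), a change of 0.56 ± 0.06 (adjusted p = 1.55e-05), without overlap. The MT2A promoter is shown because it holds several matches to the core of metal response elements, which the zinc sensor MTF1 is known to bind. The capitals mark 2 matches to TGCGCNC and 5 to TGCACNC on either strand, none of which overlap, in RefSeq sequence of GRCh38.p14. Here too the RefSeq start lies inside the GENCODE span.
MT2A promoter, chr16:56608334-56608583, plus strand: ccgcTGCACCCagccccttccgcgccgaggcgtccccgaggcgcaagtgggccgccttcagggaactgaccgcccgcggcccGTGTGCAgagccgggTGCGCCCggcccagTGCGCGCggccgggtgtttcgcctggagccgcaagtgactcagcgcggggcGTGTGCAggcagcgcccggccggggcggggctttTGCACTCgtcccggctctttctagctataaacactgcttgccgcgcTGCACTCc
MT1F, a paralog, rose from a far lower level, with 5.69, 6.37 and 6.81 TPM in DMSO and 13.7, 15.6 and 10.4 TPM at 24 h (0.95 ± 0.17, adjusted p = 0.00178). MT1X did not pass the test, at 217, 192 and 211 TPM in DMSO and 192, 184 and 189.9 TPM at 24 h (-0.13 ± 0.07). These genes are similar in sequence, so their separation by short reads is uncertain. MTF1 itself did not pass the test (-0.06). ANKH, a membrane exporter gene of pyrophosphate and citrate, fell from 121 ± 8.396 to 68.9 ± 1.92 TPM (-0.80).

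As for the motifs in general, the table of promoters matched 10321 of the tested gene symbols, 512 of the genes called higher and 430 of those called lower, some with more than 1 start. In windows of 250 bases before the start, the androgen response element with up to 2 mismatches occurred in 1.18% of all 35116 promoters and in 0.512% of the 15038 promoters of genes tested. It was found in 5 of 646 promoters of genes called lower (0.774%) and in 7 of 842 of genes called higher (0.831%). TGATGCAA occurred in 0.772% of all promoters and 0.439% of those of genes tested, in 6 of 842 of genes called higher (0.713%) and in 1 of 646 of genes called lower (0.155%). TGCGCNC was found in 16.8% of all promoters, 24.5% of those of genes tested, 21.9% of those of genes called higher and 22.8% of those of genes called lower. For TGCACNC these shares were 9.87%, 9.67%, 10.7% and 9.60%. The called genes are part of the genes tested, the counts for the longer motifs are small, and no test was made. A match describes these letters only.

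SOX9 had the largest log2 gain of the genes named here (1.93 ± 0.12, adjusted p = 1.96e-08). SOX9, a lineage factor gene of prostate buds (ENSG00000125398, chromosome 17, 72121020 to 72126420), had 1.26, 1.48 and 1.38 TPM in DMSO and 8.47, 7.13 and 8.61 TPM at 24 h. In the WNT pathway, LEF1, the nuclear partner of beta-catenin, had 15.99, 12.96 and 13.2 TPM in DMSO and 26.8, 28.8 and 28.7 TPM at 24 h (0.96 ± 0.08, adjusted p = 8.11e-07), and WNT5A, a non-canonical ligand gene, 1.62, 1.7 and 1.28 TPM in DMSO and 4.15, 3.47 and 3.76 TPM at 24 h. FZD5, a WNT receptor gene, and WNT7B, a ligand gene, fell from 4.66 ± 0.346 to 2.54 ± 0.135 TPM and from 19.4 ± 0.659 to 12.95 ± 0.484 TPM. AXIN2, the feedback gene of canonical WNT signalling, did not pass the test (0.05 ± 0.11). In all, 7 of 32 genes were higher and 2 lower (median 0.13), but 4 were higher without 24 h replicate 1, 2 or 3 or without DMSO replicate 1 or 3.

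In the Notch pathway 1 of 18 genes rose and 1 fell, near the shares of all genes tested (4.59% higher and 3.58% lower). NOTCH3, a receptor gene, rose, with 2.62, 3.27 and 3.23 TPM in DMSO and 5.76, 5.9 and 8.23 TPM at 24 h (0.91 ± 0.14, adjusted p = 0.000479), while NOTCH1, NOTCH2 and the target gene HES1 did not pass the test (0.01, 0.12 and -0.21). Of 31 TGF-beta and BMP genes 5 were higher and 1 lower (median 0.04), and 3 were higher without 24 h replicate 1, DMSO replicate 1 or DMSO replicate 3. BAMBI, a decoy receptor gene, had 23.99, 22.7 and 20.4 TPM in DMSO and 64.6, 60.8 and 61.5 TPM at 24 h. The BMP target genes ID1 and ID2 rose from 56.9 ± 0.932 to 86.6 ± 2.38 TPM and from 136 ± 3.55 to 169 ± 2.65 TPM. SMAD7, a feedback inhibitor gene, did not pass the test (0.19).

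Genes of neurite contact and guidance had 6 of 35 higher and 2 lower (median 0.11). CBLN2, a secreted organizer of synapses (ENSG00000141668, chromosome 18, 72536680 to 72638521), stood at 15.8, 17.9 and 14.7 TPM in DMSO and 55.2, 48.9 and 52.03 TPM at 24 h, and LRRN1, a leucine-rich repeat protein gene, at 7.75, 9.25 and 7.75 TPM in DMSO and 23.5, 23.7 and 23.3 TPM at 24 h. CNTN5, a contactin gene, had 1.43, 1.26 and 2.05 TPM in DMSO and 6.4, 9.37 and 7.87 TPM at 24 h, and SEMA6A, a semaphorin gene, 7.11, 8.88 and 6.67 TPM in DMSO and 14.6, 15.7 and 12.7 TPM at 24 h. In each of these 4 genes every 24 h library was above every DMSO library. EFNB2, an ephrin gene, went down, with 18.6, 18.3 and 16.6 TPM in DMSO and 9.25, 7.61 and 8.66 TPM at 24 h (-0.99). In the matrix group, with 4 of 29 higher and 1 lower, SDC4, a proteoglycan gene, rose from 5.96 ± 0.915 to 17.7 ± 0.837 TPM, MATN2, a matrilin gene, from 1.14 ± 0.202 to 3.72 ± 0.961 TPM and ITGA3, an integrin gene, from 3.31 ± 0.629 to 6.01 ± 0.6298 TPM, while LAMA1, a laminin gene, fell from 2.86 ± 0.45 to 0.96 ± 0.338 TPM. Neuroendocrine markers had 1 of 8 called, ENO2, from 13.8 ± 0.637 to 21.6 ± 0.8099 TPM, an enzyme gene shared with glycolysis, and CHGA was at 0 to 0.1 TPM in the 6 libraries.

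Among surface antigens that therapies address, TMEFF2 (ENSG00000144339, chromosome 2, 191949043 to 192195709) stood at 179, 188 and 182 TPM in DMSO and 66.4, 69.3 and 66.2 TPM at 24 h (-1.43 ± 0.09, adjusted p = 2.9e-08), while NECTIN4 rose from 1.64 ± 0.183 to 3.47 ± 0.205 TPM (0.76). FOLH1, which encodes PSMA, did not pass the test (0.28 ± 0.10).

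Of 37 genes of G2 and mitosis, limma called 0, with 3 at an unadjusted p under 0.05, and 3 were called higher with quantile normalization. MKI67 stood at 32.5, 39.6 and 31.1 TPM in DMSO and 32.9, 31.4 and 33.7 TPM at 24 h (-0.07 ± 0.13) and CCNB1 at 0.11 ± 0.06. DNA replication genes had 6 of 44 lower and none higher (median -0.17). TYMS, the thymidylate synthase gene, had 128, 131 and 127 TPM in DMSO and 105, 107 and 102 TPM at 24 h (-0.29), and ATAD2, a chromatin-binding ATPase gene, 57.7, 66.1 and 54.95 TPM in DMSO and 44.7, 35.1 and 42.1 TPM at 24 h (-0.54). That count ranged from 2 to 4 when single libraries were left out (2 without DMSO replicate 1, DMSO replicate 2 or 24 h replicate 3) and was 21 with median-of-ratios scaling. The nucleolar genes had 9 of 40 lower and none higher (median -0.18), 4 or 5 without any single library of the 6, and 19 with median-of-ratios scaling. LYAR and NOP16, nucleolar proteins, fell from 61.3 ± 1.47 to 45.8 ± 0.345 TPM and from 165 ± 6.399 to 136 ± 4.54 TPM. MYC, which drives such genes, did not pass the test at 265, 312 and 255 TPM in DMSO and 242, 253 and 223 TPM at 24 h (-0.21 ± 0.13), although the groups did not overlap. The same held for 27.3% of all genes tested. Of 14 genes of cyclins, CDKs and CDK inhibitors 2 were higher, both of them inhibitor genes, and none lower. Neither call was kept without 24 h replicate 1, 2 or 3 or without DMSO replicate 1 or 3. In the same list CCND1 and CDKN1A did not pass the test (0.01 and 0.06).

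**Figure D3:**
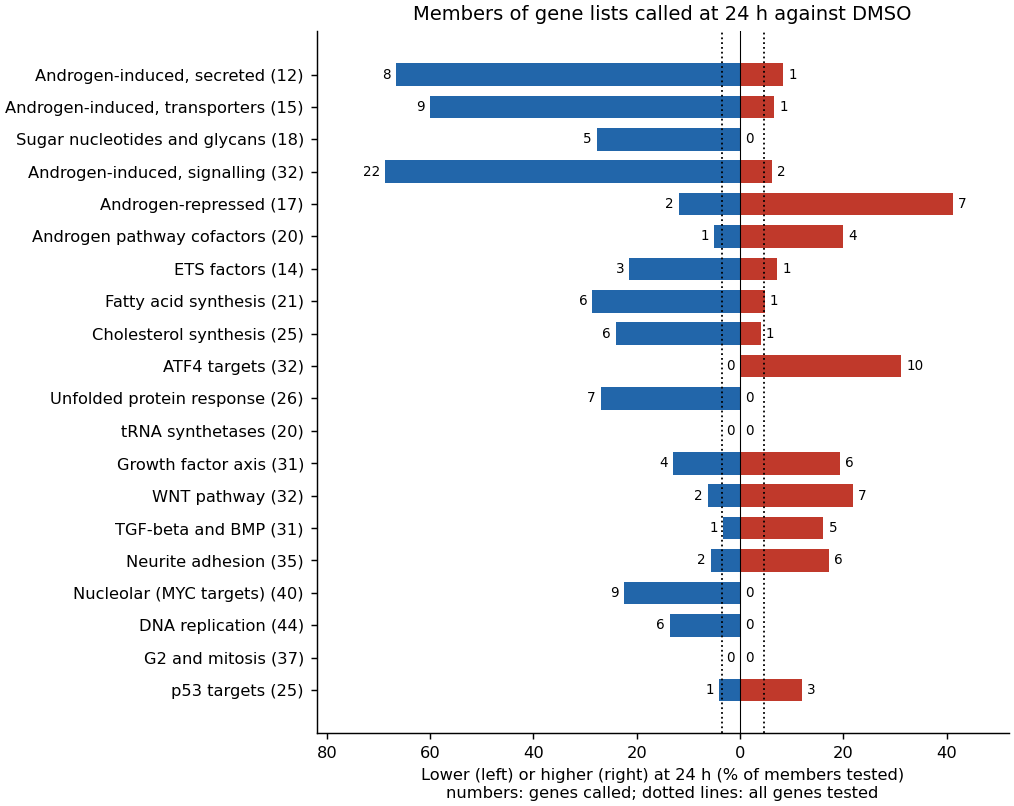
Bars give the share of tested members (number in brackets) called lower (blue, left) or higher (red, right) at 24 h, with the number of genes called beside each bar. Dotted lines mark the shares among all genes tested, 3.58% lower and 4.59% higher; the androgen-induced signalling list reaches 22 of 32 lower and the ATF4 list 10 of 32 higher.

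Single genes of stress, survival and the clock were also called. The list counts in this paragraph are small and stand beside 4.59% higher and 3.58% lower among all genes tested. SESN1, a p53- and FOXO-responsive inhibitor of mTORC1 (ENSG00000080546, chromosome 6, 108986437 to 109094819), had 16.4, 16.01 and 16.1 TPM in DMSO and 32.4, 27.6 and 34.03 TPM at 24 h (0.91 ± 0.08, adjusted p = 1.31e-06), as 1 of 3 higher and 1 lower among 25 p53 targets, while MDM2 did not pass the test (-0.01). BMF, a pro-apoptotic BH3-only gene, had 2.76, 2.75 and 2.49 TPM in DMSO and 5.85, 5.61 and 6.04 TPM at 24 h (0.90), and IRF1, an interferon-induced factor gene, 0.54, 1.02 and 0.79 TPM in DMSO and 2.51, 1.94 and 2.91 TPM at 24 h (0.95). EGR1, an immediate early gene, rose from 0.59 ± 0.0985 to 2.05 ± 0.1504 TPM, and KLF4, another, fell from 7.47 ± 0.59 to 3.74 ± 0.202 TPM (-0.84). NFKBIA, the inhibitor of NF-kappaB and a target shared by steroid receptors, had 108, 102 and 97.1 TPM in DMSO and 65.05, 64.04 and 64.2 TPM at 24 h (-0.66 ± 0.06, adjusted p = 2.12e-06). NR1D1 and CIART, repressors of the circadian clock, rose from 7.77 ± 0.781 to 12.8 ± 0.424 TPM and from 14.8 ± 0.861 to 23.2 ± 1.61 TPM, and HLF, a clock output factor gene, fell from 6.14 ± 1.59 to 2.57 ± 0.431 TPM. The core clock gene CLOCK did not pass the test (0.00). Of 27 glycolysis genes 1 was called higher and 2 lower, and the lower ones were SLC2A12, an androgen-regulated glucose transporter gene, from 4.04 ± 0.211 to 2.11 ± 0.386 TPM, and PFKFB2, from 13.5 ± 0.517 to 9.6 ± 0.933 TPM.

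Comparison of 144 h with 24 h tested whether an effect had changed by the longer time; 4802 genes were called (29.7%), and both comparisons use the 24 h libraries. The genes below, apart from MT2A, are from those picked by rule because this step was called in the opposite direction. MT2A was also called in the opposite direction but lay outside that pick. RGS2, an inhibitor of G protein signalling (ENSG00000116741, chromosome 1, 192809039 to 192812283), stood at 7.41, 7.1 and 7.41 TPM in DMSO and 17.9, 16.2 and 16.98 TPM at 24 h (1.12 ± 0.07) and then at 9.02, 6.36 and 4.14 TPM on average at 48, 96 and 144 h (-1.81 ± 0.07, adjusted p = 4.69e-11 for 144 h against 24 h). CHAC1 followed with 28.1, 26.1 and 17.1 TPM (-1.27 ± 0.08, adjusted p = 4.22e-09), SLC7A5 with 7.25, 5.42 and 3.02 TPM (-1.59 ± 0.08, adjusted p = 4.85e-10) and MT2A with 350.2, 251 and 202 TPM (-1.84 ± 0.06, adjusted p = 8.65e-12). TNFRSF19, a receptor gene of the TNF family, had 24.6, 27.2 and 23.03 TPM in DMSO and 41.9, 35 and 41.2 TPM at 24 h, and later 22.98, 15.7 and 7.12 TPM (-2.31 ± 0.11, adjusted p = 2.99e-10). MIPEP, a mitochondrial peptidase gene beside it on chromosome 13, had 35.04, 32.4 and 34.7 TPM in DMSO and 54.4, 49.9 and 55.7 TPM at 24 h, and later 33.5, 22.6 and 14.97 TPM (-1.77 ± 0.09, adjusted p = 4.17e-10). All 6 genes ended below their DMSO means. They are a selection of the genes that turned, and not all of those did so: CNKSR3, given further on, stayed above its DMSO mean.

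Some genes lower at 24 h came back. EFNB2 was at 10.5, 15.6 and 21.6 TPM at 48, 96 and 144 h (1.25 ± 0.09, adjusted p = 8.62e-08). ARHGAP6, a GTPase-activating protein gene, had 33.4, 35.7 and 33.7 TPM in DMSO and 22.6, 22.6 and 20.9 TPM at 24 h (-0.62) and later 26.5, 33.05 and 44.3 TPM (0.97 ± 0.09, adjusted p = 6.34e-07). NTNG1, a netrin-family adhesion gene, fell from 7.66 ± 0.879 to 2.82 ± 0.63 TPM and was later at 2.91, 4.4 and 6.03 TPM (0.89 ± 0.14, adjusted p = 0.00018). MICAL1, an actin-oxidizing enzyme gene, fell from 18.1 ± 1.45 to 7.91 ± 1.06 TPM and was later at 8.25, 9.24 and 12.1 TPM (0.55 ± 0.14, adjusted p = 0.00757).

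**Figure D4:**
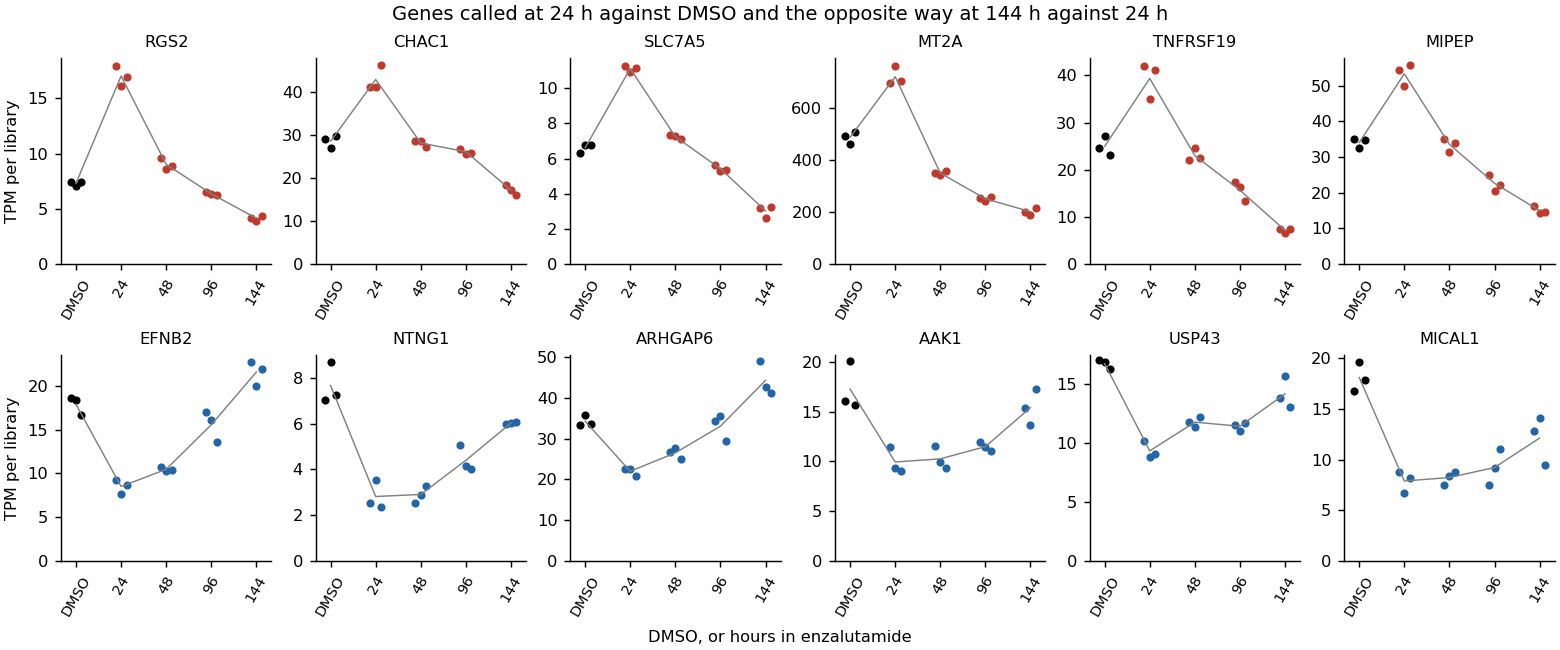
TPM of 12 genes in each library of DMSO (black) and of 24, 48, 96 and 144 h in enzalutamide (red, genes higher at 24 h; blue, genes lower at 24 h), with lines through the group means and axes from 0. RGS2 peaks at 24 h with 16.2 to 17.95 TPM, and EFNB2 is lowest at 24 h with 7.61 to 9.25 TPM.

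Other early changes held or grew. KLK3 went on to 171, 71.8 and 34.2 TPM at 48, 96 and 144 h, and SLC45A3 to 31.2, 22.2 and 19.2 TPM. DDC went on to 101, 217 and 305 TPM, ATP1B1 to 709, 1017 and 1412 TPM and IGFBP3 to 43.9, 92.9 and 189 TPM. MAOA, by contrast, was at 129.8, 130.4 and 148 TPM, DEGS1 at 241, 217 and 245 TPM and TMPRSS2 at 32.8, 33.3 and 38.4 TPM, near their 24 h means of 141, 242 and 32.6 TPM. The step from 24 h to 144 h was not called for MAOA (0.07 ± 0.10, adjusted p = 0.679), DEGS1 (0.02 ± 0.06, adjusted p = 0.878) or TMPRSS2 (0.22 ± 0.12, adjusted p = 0.18).

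In the comparison of 144 h with 48 h, neither group mean comes from the 24 h or DMSO libraries. It shares with 24 h against DMSO the estimate of the spread, taken over all 18 libraries, so their calls are not independent. The step from 48 h to 144 h called 2914 genes (18%), 2049 higher (12.7%) and 865 lower (5.35%). Of the 742 genes higher at 24 h, 358 (48.2%) were higher again at 144 h than at 48 h and 55 (7.41%) were lower. Of the 579 genes lower at 24 h, 162 (28.0%) were lower again and 34 (5.87%) were higher. The shared genes made up 17.5% of all genes called higher in that step and 18.7% of those called lower. With median-of-ratios scaling the shares were 41.8% higher again against 10.2% of all genes, and 41.5% lower again against 12.5%. Without 144 h replicate 1 the step called 1248 genes higher, and the shares were 39.4% and 24.0%.

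**Figure D5:**
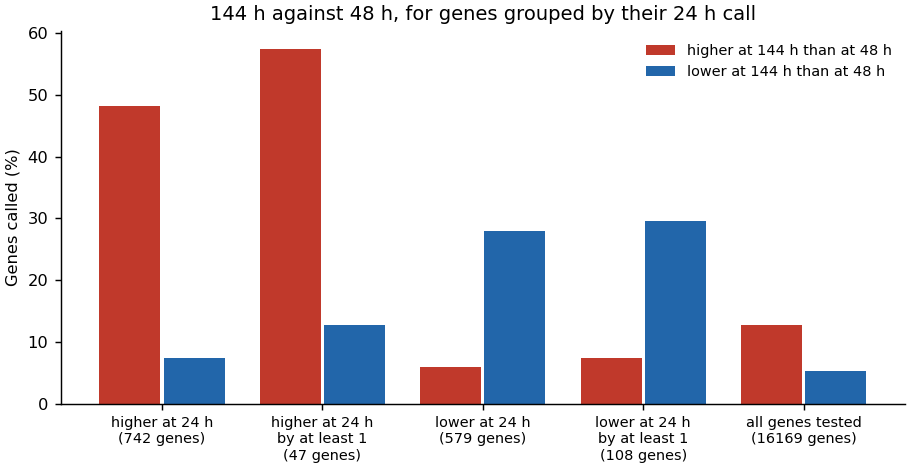
Bars give the percentage of genes called higher (red) or lower (blue) at 144 h against 48 h, for genes grouped by their call at 24 h against DMSO, and for all genes tested. The genes higher at 24 h show 48.2% higher and 7.41% lower, against 12.7% and 5.35% of all genes.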

How the data were processed

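Poly(A) RNA of 16D cells was read on a HiSeq3000 as 50 bp single-end, strand-specific libraries, per the labels' protocols. The authors deposited 1 table of TPM for 18 libraries; its 18 columns were matched to samples by name, and 0 columns stayed unmapped. The submitters' processing notes name STAR, RSEM, Partek and the build GRCh38, without roles or versions. Read depth was not given in the sources used here.

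Gene IDs in the table were matched to GENCODE release 29 (58516 of 60623). The 16169 genes that reached 1 TPM in 3 or more libraries were tested, and log2(TPM + 1) was fitted with limma 3.58.1 in R 4.3.3: 6 group means over all 18 libraries, variance trend, two-sided moderated tests, Benjamini-Hochberg adjustment over all genes tested, threshold 0.05. Comparisons were 24 h against DMSO, 144 h against 24 h, and 144 h against 48 h. The scripts were tested on simulated data. Promoters (250 bases before the start) are from RefSeq on GRCh38.p14. Tables and plots used Python 3.11.15 with pandas 2.3.3 and matplotlib 3.10.9.

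The members, gene lists and tests were chosen with earlier results of these data known. Named genes were, among those called without overlap and with at least 5 TPM in the higher group, the 25 largest log2 changes and 15 largest TPM differences in each direction. Added to these were up to 6 called members of each list by adjusted p, up to 10 genes per direction called the opposite way at 144 h against 24 h, and a fixed set with FOXA1, HOXB13, KLK3, TMPRSS2, FKBP5 and MYC. Other list members were named after their values were seen. Some genes that the rule would name are not reported here. Alternatives were another pseudocount, filter and scaling, a covariate, a fit of both groups alone, no variance trend, a replicate block and leaving out each library.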

Additional observations from a re-analysis of the deposited data

Results flagged for a closer look

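The change after 144 h differed from that after 24 h, by the test of 144 h against 24 h, in 4802 of 16169 genes (limma, adjusted p under 0.05). Among the 233 named genes called at 24 h, 174 also differed in this step, in either direction. Some of these genes were named because this step was called, and others for large changes at 24 h. Both comparisons also use the 24 h libraries. The number among named genes is thus partly set by their selection and cannot be compared with the share of all genes. In the whole table, a difference from the 24 h effect was common, at 29.7%.

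The rule for named genes picked 20 that turned back, 10 in each direction. Of the 10 that were higher at 24 h, the fall from 24 h to 144 h on the log2 scale was largest in TNFRSF19 (-2.31), RGS2 (-1.81) and MIPEP (-1.77). SLC7A5 (-1.59), CHAC1 (-1.27) and MT1F (-0.71) are the stress and metal-binding genes described in the report. The others were LINC01133, a long non-coding RNA (-1.16), CNKSR3, an aldosterone-responsive scaffold protein gene (-0.85), TRIB1, a pseudokinase gene (-0.63), and DRAIC (-0.57). CNKSR3 went from 8.14 ± 0.812 to 16.7 ± 0.847 TPM, DMSO to 24 h, and was at 13.7, 10.1 and 8.77 TPM at 48, 96 and 144 h.

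Of the 10 lower at 24 h, EFNB2 regained most (1.25), followed by ARHGAP6 (0.97) and NTNG1 (0.89). LIN7B, a polarity scaffold gene, had 0.62, AAK1, an endocytic kinase gene, 0.58, USP43, a deubiquitinase gene, 0.55, and MICAL1 0.55. IL1R1, the interleukin-1 receptor gene, had 0.51, SEC14L2, a lipid transfer protein gene, 0.50, and PLK2, a polo-like kinase gene, 0.47. The call of SEC14L2 at 24 h was kept in 8 of 16 alternatives. AAK1 went from 17.3 ± 2.47 to 9.94 ± 1.33 TPM, DMSO to 24 h, and was at 10.3, 11.5 and 15.4 TPM at 48, 96 and 144 h. Both comparisons share the 24 h libraries, and the causes of these returns were not tested.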

How the results depend on the processing

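At 24 h against DMSO, median-of-ratios scaling gave 2026 calls with 1128 lower, and the mitochondrial share as a covariate 2292 calls with 1293 higher and 999 lower. A fit of only both groups called 492 genes higher and 497 lower. Leaving out single libraries gave 869 to 1006 calls, 457 to 589 higher and 399 to 492 lower. At 144 h against 24 h, 2957 genes were lower with median-of-ratios scaling, 2738 with quantile normalization and 1337 to 1688 without single libraries. At 144 h against 48 h, leaving out single libraries gave 1885 to 2861 calls, 1248 to 2126 higher and 577 to 913 lower; 2014 were lower with median-of-ratios scaling, 1798 with quantile normalization and 865 as reported, and 1404 with the covariate. Higher genes were 62.5% of calls at 144 h against 24 h and 47.4% with median-of-ratios scaling, and 70.3% and 45.1% at 144 h against 48 h. The cause of these shifts was not tested. Fits without single libraries also rest on fewer libraries. A replicate block gave 1210 calls at 24 h, 4663 and 2762 in the later steps. Deviations from the group means had correlations of 0.0258, 0.0435 and 0.0495 between same-numbered DMSO and 24 h libraries. Not every library correlated best with its own number. Such weak correlations cannot tell whether same-numbered libraries were handled together. Of the values of the 236 named genes under the alternatives, 3438 stayed on the same side of the threshold, 324 lost the call and 0 reversed.

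The limits are these. There are 3 libraries a group, the DMSO group has no stated time, TPM are relative to the total of each library, and genes under 1 TPM were not tested.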

Other observations

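Genes next to each other on a chromosome were compared as 8760 pairs of tested neighbours within 100 kb. In 50 pairs both were higher at 24 h, in 42 both were lower (1.05% in the same direction) and in 22 they went opposite ways (0.251%). In 1177 pairs 1 gene alone was called. Neighbours that overlap were left out, but others can share a start region, so these pairs are not independent, and no test was made.

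Several decreases had another beside them. DEGS1 (-0.99) lies beside NVL, a ribosome assembly gene, which fell from 83.7 ± 1.78 to 53.5 ± 2.57 TPM (-0.64). MCCC2, a leucine breakdown enzyme gene, fell from 140.1 ± 1.71 to 83.2 ± 4.15 TPM (-0.75), and its neighbour CARTPT, a neuropeptide gene, from 1.65 ± 0.133 to 0.19 ± 0.13 TPM (-1.16). TM4SF1, a surface protein gene, fell from 26.3 ± 1.49 to 9.48 ± 0.435 TPM (-1.38) and its paralog and neighbour TM4SF18 from 2.29 ± 0.408 to 0.593 ± 0.201 TPM (-1.05). The homeobox genes DLX1 and DLX2 fell together (-1.01 and -0.55). In the other direction, DDC and GRB10 are neighbours that both rose, as did TNFRSF19 and MIPEP.

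Some neighbours went opposite ways. NDUFB4 rose beside HGD, an enzyme gene of tyrosine breakdown, which fell from 22.6 ± 1.03 to 11.99 ± 0.413 TPM (-0.86). DPP4, a membrane peptidase gene, fell from 6.88 ± 1.14 to 2.41 ± 0.215 TPM (-1.20) beside GCG, the glucagon gene, which rose (0.76 ± 0.15). SSBP2, a DNA-binding cofactor gene, rose from 20.5 ± 1.43 to 37.5 ± 1.45 TPM (0.84) near ZCCHC9, which fell (-0.52).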
